A study of Arabidopsis thaliana with 24 samples.

Results

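The cysteine-rich receptor-like kinases (CRKs) were described in polysome-bound mRNA of Arabidopsis thaliana seedlings. They were taken by name, as the genes of the count table whose symbol is CRK9 or CRK10 to CRK49, and 31 of the 32833 genes in the table met that rule. These were CRK10 to CRK16, CRK18 to CRK34 and CRK36 to CRK42. Of the 31 genes, 25 passed the filter on low counts over all libraries and are called expressed here, and CRK20, CRK23, CRK24, CRK33, CRK37 and CRK38 did not pass it. CRK33 had 0 counts in every library, and the other genes that failed the filter had 30 to 104 counts summed over 24 libraries.

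Whole seedlings aged 9 days, grown on 1/2 MS medium with sucrose, were treated for 60 min. The groups of the salt experiment were exa1-1 in 200 mM NaCl, wild type (WT, Col-0) in 200 mM NaCl, exa1-1 in MS and WT in MS. Those of the heat experiment were exa1-1 at 39 °C, WT at 39 °C, exa1-1 at 23 °C and WT at 23 °C. Each of the 8 groups had 3 biological replicates. The mutant is a single allele of EXA1, a gene for a GYF-domain protein, and no rescued line is analysed here. Values are amounts in the polysome fraction of whole seedlings, so transcript abundance and ribosome loading cannot be told apart, nor can fewer cells of a type and less RNA per cell. Library totals ran from 17861136 to 20629439 counts. EXA1 itself had 5.16 to 9.58 counts scaled to library size (CPM) in the 12 exa1-1 libraries, against 51.9 to 105 CPM in the 12 WT libraries, which do not overlap.

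CRKs are transmembrane kinases of the plasma membrane. Outside the cell they carry tandem DUF26 domains, each with a conserved spacing of cysteines, and inside it a serine/threonine kinase domain. Several are known as regulators of immunity, of responses to reactive oxygen species and of abscisic acid or stress responses in Arabidopsis, and many of the genes stand in tandem arrays.

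The cysteine spacing that names the family was read from the coding sequences (RefSeq annotation of the TAIR10.1 assembly, matched by locus for 31 of 31 genes). A cysteine codon, 8 other codons, a cysteine codon, 2 other codons and a last cysteine codon occurred at least once in all 31 genes and 2 or more times in 29 of them. The first occurrence is shown for 5 genes on which the results turn, 5′ to 3′ on the coding strand, with the cysteine codons in capitals.
CRK11: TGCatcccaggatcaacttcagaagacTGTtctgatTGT
CRK18: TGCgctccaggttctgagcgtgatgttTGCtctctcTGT
CRK36: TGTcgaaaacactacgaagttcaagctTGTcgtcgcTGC
CRK29: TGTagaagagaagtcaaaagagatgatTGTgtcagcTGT
CRK30: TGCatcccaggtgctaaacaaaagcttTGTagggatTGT
The search itself fixed the spacing of the capitals, and the bases between them differ among these genes. How often coding sequences outside the family hold this spacing was not counted. CRK24 and CRK27 had the spacing 1 time, and CRK23 had it 3 times.

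Of the 31 genes, 30 lie on chromosome 4 and CRK42 lies on chromosome 5 (TAIR10.1). With a gap of less than 50 kb between neighbours, 26 of them form 4 runs. The largest run holds 14 genes, CRK10 to CRK24 without CRK17, in 53.7 kb (chr4:12137995-12191704). CRK36 to CRK40 form a run of 5 in 61.2 kb (chr4:2231717-2292965), CRK30 to CRK34 one of 5 in 26.3 kb (chr4:6963521-6989793), and CRK28 with CRK29 one of 2 in 6.4 kb (chr4:11398857-11405235). CRK25, CRK26, CRK27, CRK41 and CRK42 stand alone.

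Near-identical copies limit what the counts can resolve, because the way reads shared between genes were counted is not given in the sources used here. CRK13 and CRK22, whose coding sequences are 80.4% identical, share 365 windows of 50 bases, which is 21.7% of the windows of CRK13 and 22.3% of those of CRK22. CRK39 and CRK40 share 84 such windows, CRK19 and CRK20 share 62, and CRK28 and CRK29 share 30. In CRK18, 87 windows (5.31%) recur elsewhere in the genome. None of them lies in the coding sequence of the other genes compared, which were those of the name rule and the DUF26 kinases listed below. Other loci, such as AT4G23250, were not compared. CRK28 and CRK29 also overlap on the same strand, as do CRK16 and the gene AT4G23250, and CRK29 and AT4G03065. The ends of CRK10 and CRK11 overlap on opposite strands. CRK19, CRK25 and CRK42 are overlapped on the opposite strand by AT4G23271, AT4G05190 and AT5G40382, in that order. Values of these genes are therefore uncertain where the copies or overlapping genes differ in direction.

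Levels were compared between genes per length, as FPKM (fragments per kilobase scaled to library size, the authors' values). CRK29 stood first in MS, with a mean of 70.3 ± 2.91 FPKM in exa1-1 and 67.8 ± 1.96 FPKM in WT (SD, n = 3). The next genes there were CRK30 in exa1-1, with 14.2 ± 1.86 FPKM, and CRK19 in WT, with 10.8 ± 0.589 FPKM, and neither range reached that of CRK29. In NaCl CRK29 stayed first in exa1-1 with 19.7 ± 0.101 FPKM, whereas CRK11 led in WT with 15.7 ± 0.703 FPKM, and in both cases the second gene lay outside the range of the first.

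At 23 °C no single gene led. In exa1-1 the first 4 genes were CRK29, CRK19, CRK40 and CRK25, from 11.0 ± 1.19 down to 8.42 ± 1.43 FPKM, and each range overlapped the next. In WT they were CRK29, CRK25, CRK40 and CRK19, from 12.1 ± 1.45 down to 10.3 ± 1.01 FPKM, again with overlapping neighbours. At 39 °C CRK19 stood first with 2.96 ± 0.365 FPKM in exa1-1 and 3.37 ± 0.479 FPKM in WT, and its range overlapped that of CRK29 in both genotypes.

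Summed over the 31 genes, CRKs took a small share of the counts, and the share was lowest at 39 °C. It was 0.0252% in exa1-1 in NaCl, 0.0225% in WT in NaCl, 0.0482% in exa1-1 in MS and 0.0434% in WT in MS. In the heat experiment it was 0.00427% in exa1-1 at 39 °C, 0.00532% in WT at 39 °C, 0.0225% in exa1-1 at 23 °C and 0.0237% in WT at 23 °C. These shares are of each library's total and carry no further scaling. On that scale the median log2 fold change of all genes tested with heat was -1.05 in exa1-1 and -1.0 in WT. CRK29 held 40.9% of the summed CRK FPKM in exa1-1 in MS and 43.8% in WT in MS, against 20.8% and 16.9% in NaCl.

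**Figure D1:**
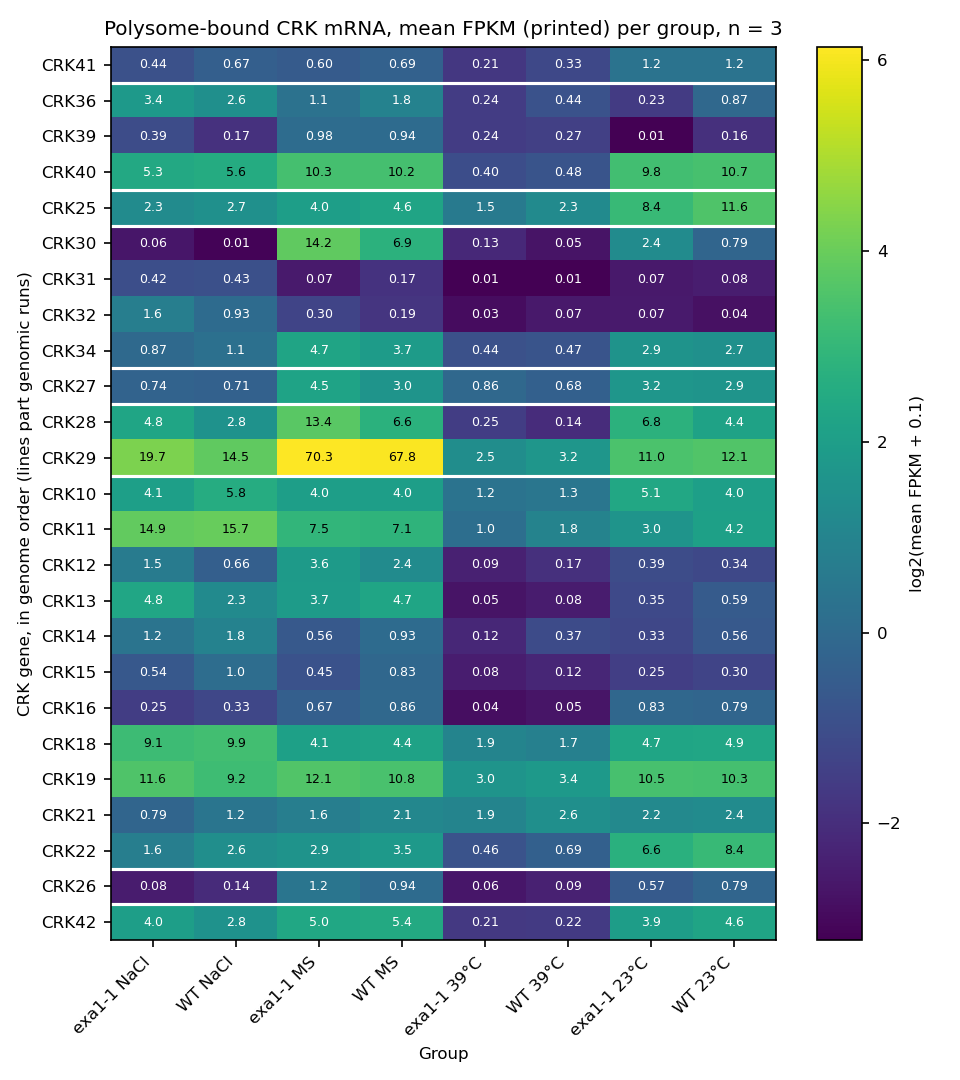
Mean FPKM of the 25 expressed CRK genes (rows, in genome order, with lines between runs) in the 8 groups (columns, n = 3 each); the printed figure in each cell is the mean and the colour is log2 of the mean plus 0.1. CRK29 in MS, at 70.3 FPKM in exa1-1 and 67.8 FPKM in WT, is the brightest row, and the columns of 39 °C are the darkest.

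With salt expressed CRKs were called in both directions, as all genes tested were. Of 25 expressed genes in exa1-1, 7 rose and 13 fell with NaCl, and of the same 25 in WT, 7 rose and 14 fell (edgeR's quasi-likelihood test, adjusted p under 0.05 after Benjamini-Hochberg adjustment over all genes). Of all genes tested, 35.9% were called higher and 37.2% lower in exa1-1, and 36.5% higher and 35.4% lower in WT. The shares that rose, 7 of 25, were thus below the background and the shares that fell, 13 and 14 of 25, above it. The median log2 fold change of the expressed CRKs was -0.60 in exa1-1 and -0.63 in WT, beside -0.02 and 0.00033 for all genes tested. Since a gene can pass the filter through the group in which it is high, these counts describe the genes that passed and give no support of their own. With library totals alone in place of the scaling, 5850 of all genes were called higher and 10357 lower in exa1-1 (median -0.20), and 6174 higher and 9518 lower in WT (median -0.15), and of the CRKs 7 rose and 14 fell in exa1-1 and 7 rose and 16 fell in WT. In both genotypes 6 genes rose, CRK11, CRK14, CRK18, CRK31, CRK32 and CRK36, and 12 fell.

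CRK18 and CRK11, both of the run of 14, had the highest CPM of the genes that rose. CRK18 had 15.8, 17.7 and 16.6 CPM in exa1-1 in NaCl, against 7.15, 5.52 and 7.34 CPM in exa1-1 in MS, and 19.0, 18.7 and 18.9 CPM in WT in NaCl, against 8.04, 6.93 and 7.59 CPM in WT in MS. All 6 NaCl libraries lay above all 6 MS libraries, and the log2 fold change was 1.31 ± 0.0987 (SE) in exa1-1 and 1.32 ± 0.0964 in WT (adjusted p = 3.2e-15 and 1.18e-15). CRK11, reported to be induced by pathogens and oxidative stress, had 29.8, 31.1 and 33.2 CPM in exa1-1 in NaCl, against 12.3, 13.0 and 16.4 CPM in exa1-1 in MS, and 33.4, 36.1 and 33.3 CPM in WT in NaCl, against 15.1, 12.1 and 15.0 CPM in WT in MS. Its NaCl libraries again stood apart from its MS libraries, with log2 fold changes of 1.15 ± 0.0856 in exa1-1 and 1.28 ± 0.0854 in WT (adjusted p = 1.45e-14 and 8.59e-16).

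CRK14, of the same run, rose at a lower level. It had 1.60, 2.14 and 2.18 CPM in exa1-1 in NaCl, against 0.808, 0.540 and 1.07 CPM in exa1-1 in MS, and 3.23, 3.06 and 3.05 CPM in WT in NaCl, against 1.66, 1.35 and 1.29 CPM in WT in MS. Within each genotype the NaCl and MS libraries did not overlap, and the log2 fold change was 1.27 ± 0.259 in exa1-1 and 1.1 ± 0.221 in WT (adjusted p = 3.84e-05 and 2.72e-05).

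CRK36, which is reported to act in abscisic acid and immune signalling, rose further in exa1-1. It had 5.83, 6.38 and 6.85 CPM in exa1-1 in NaCl, against 2.43, 1.66 and 1.52 CPM in exa1-1 in MS, and 5.26, 4.84 and 5.24 CPM in WT in NaCl, against 3.25, 2.96 and 3.26 CPM in WT in MS. The exa1-1 MS libraries were the lowest of the 12, and no groups overlapped. The log2 fold change was 1.75 ± 0.162 in exa1-1 and 0.69 ± 0.155 in WT (adjusted p = 1.33e-12 and 0.000144), and the difference of 1.06 ± 0.228 between the genotypes passed the test of the interaction (adjusted p = 0.000569).

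CRK31 and CRK32, adjacent genes that are 87.5% identical over their coding sequences, were scarce. CRK32 averaged 2.97 ± 0.256 CPM in exa1-1 in NaCl, against 0.491 ± 0.198 CPM in exa1-1 in MS, and 1.79 ± 0.357 CPM in WT in NaCl, against 0.326 ± 0.0810 CPM in WT in MS (SD, n = 3). CRK31 stayed below 1.1 CPM in every library, with log2 fold changes of 2.68 ± 0.503 in exa1-1 and 1.43 ± 0.413 in WT. Both genes rose in both genotypes, while CRK30 and CRK34 of the same run fell in both.

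CRK30 showed the largest fall with salt. It had 0, 0.274 and 0.0890 CPM in exa1-1 in NaCl, against 23.7, 24.3 and 28.9 CPM in exa1-1 in MS, and 0, 0.0914 and 0 CPM in WT in NaCl, against 12.5, 14.9 and 12.4 CPM in WT in MS. Its NaCl libraries were at or near 0 and its MS libraries were not. From 2 counts in WT in NaCl and 962 in WT in MS, the level was 420 times higher in MS (95% counting interval 116 to 3477), and in exa1-1 the log2 fold change was -7.67 ± 0.240 (adjusted p = 5.62e-25). That SE was derived from the test statistic and does not show the counting error of the 8 counts in exa1-1 in NaCl.

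CRK29, the gene with the highest level in MS, fell in both genotypes. It had 51.0, 50.8 and 49.9 CPM in exa1-1 in NaCl, against 161, 153 and 159 CPM in exa1-1 in MS, and 38.4, 40.5 and 37.0 CPM in WT in NaCl, against 166, 157 and 162 CPM in WT in MS. The genotypes overlapped in MS and were apart in NaCl, where exa1-1 was higher. The log2 fold change was -1.66 ± 0.0457 in exa1-1 and -2.07 ± 0.0472 in WT (adjusted p = 3.65e-30 and 5.75e-33), and the interaction of 0.42 ± 0.0655 passed the test (adjusted p = 6.42e-06). CRK28, its neighbour, which is reported to associate with the coreceptor BAK1, fell by 1.32 ± 0.0769 on the log2 scale in exa1-1 and by 1.08 ± 0.0901 in WT.

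CRK27 and CRK34 also fell in both genotypes. CRK27 had 1.27, 1.05 and 1.47 CPM in exa1-1 in NaCl, against 7.19, 5.23 and 7.57 CPM in exa1-1 in MS, and 1.49, 0.914 and 1.33 CPM in WT in NaCl, against 4.53, 4.66 and 4.93 CPM in WT in MS. CRK34 had 1.69, 1.41 and 2.31 CPM in exa1-1 in NaCl, against 8.37, 8.18 and 8.83 CPM in exa1-1 in MS, and 2.07, 2.51 and 2.24 CPM in WT in NaCl, against 6.64, 7.02 and 7.54 CPM in WT in MS. For both genes every NaCl library was below every MS library. The log2 fold changes of CRK27 were -2.41 ± 0.188 in exa1-1 and -1.92 ± 0.201 in WT, and those of CRK34 were -2.24 ± 0.154 in exa1-1 and -1.64 ± 0.152 in WT (largest of the 4 adjusted p-values 3.54e-11).

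CRK13, whose overexpression is reported to raise resistance to Pseudomonas syringae, moved in opposite directions in the 2 genotypes. It had 11.0, 9.66 and 11.0 CPM in exa1-1 in NaCl, against 7.48, 6.48 and 7.38 CPM in exa1-1 in MS, and 4.68, 4.98 and 5.81 CPM in WT in NaCl, against 10.5, 9.46 and 9.04 CPM in WT in MS. With salt it was thus higher in every exa1-1 library and lower in every WT library. The log2 fold change was 0.55 ± 0.109 in exa1-1 and -0.91 ± 0.118 in WT (adjusted p = 2.07e-05 and 6.31e-09), and the interaction was 1.47 ± 0.161 (adjusted p = 3.31e-09). CRK22, the gene with which it shares windows, fell by 0.67 ± 0.151 in exa1-1 and had a change of -0.28 ± 0.136 in WT that did not pass the test (adjusted p = 0.0664). Without WT NaCl replicate 2 the change of CRK22 in WT was -0.41 and passed it (adjusted p = 0.0172), as did -0.42 with library totals alone (adjusted p = 0.00570) and -0.32 and -0.42 by limma on log2 FPKM plus 1 and plus 0.1 (adjusted p = 0.0200 and 0.0290).

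Of the 25 expressed genes, 4 had a higher and 1 a lower salt change in exa1-1 than in WT, where 10.6% of all genes tested were called higher and 9.36% lower. On library totals alone 4 CRKs were higher and 2 lower, the second being CRK34 (-0.63, adjusted p = 0.0492), and of all genes 2008 were higher and 2322 lower, against 2284 and 2007 with scaling. CRK13, CRK36 and CRK29 are described above. CRK42 had 9.49, 9.30 and 9.79 CPM in exa1-1 in NaCl, against 10.0, 9.13 and 12.2 CPM in exa1-1 in MS, and 5.88, 7.68 and 7.10 CPM in WT in NaCl, against 12.2, 12.7 and 11.2 CPM in WT in MS. NaCl and MS libraries overlapped in exa1-1 and were apart in WT. The log2 fold change of CRK42 was -0.15 ± 0.108 in exa1-1, and it fell by 0.81 ± 0.112 in WT, with an interaction of 0.66 ± 0.156 (adjusted p = 0.00168). In exa1-1 CRK42 was called lower too with library totals alone (-0.33, adjusted p = 0.00743), and by limma on log2 FPKM plus 1 (-0.26, adjusted p = 0.0351) or plus 0.1 (-0.31, adjusted p = 0.0418). CRK10, of which a gain-of-function allele is reported to dwarf the plant, had a change of 0.21 ± 0.118 in exa1-1, which passed the test without exa1-1 NaCl replicate 1 (0.30, adjusted p = 0.0339), and rose by 0.72 ± 0.112 in WT, with an interaction of -0.51 ± 0.163 (adjusted p = 0.0225). The call on CRK10 was lost without WT NaCl replicate 1, WT NaCl replicate 2, WT MS replicate 1 or exa1-1 NaCl replicate 1 (adjusted p = 0.0602 to 0.0995), with all libraries in the fit (adjusted p = 0.0513) and by limma on log2 FPKM plus 1 or plus 0.1 (adjusted p = 0.0502 and 0.0590). Without 1 library a further call arose for CRK12 (WT NaCl replicate 1), CRK34 (exa1-1 NaCl replicate 3) and CRK39 (exa1-1 MS replicate 2), with adjusted p = 0.0378, 0.0142 and 0.0399.

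The remaining genes that fell with salt in both genotypes were CRK12, CRK16, CRK21, CRK25, CRK26, CRK39 and CRK40. Among them CRK26 had the largest change, -3.80 ± 0.411 in exa1-1 and -2.63 ± 0.380 in WT, at a mean of 0.138 ± 0.0486 CPM in exa1-1 in NaCl and 0.254 ± 0.104 CPM in WT in NaCl (SD, n = 3). CRK40 fell by 0.80 ± 0.0753 in exa1-1 and by 0.72 ± 0.0743 in WT. CRK15, CRK19 and CRK41 were not called in either genotype. CRK19, the gene of this trio with the highest level, averaged 25.3 ± 0.493 CPM in exa1-1 in NaCl, against 23.2 ± 1.40 CPM in exa1-1 in MS, and 20.9 ± 1.08 CPM in WT in NaCl, against 22.0 ± 1.14 CPM in WT in MS. In WT its change was -0.08 ± 0.0708, and it was called lower with library totals alone (-0.23, adjusted p = 0.00492) and by limma on log2 FPKM plus 1 (-0.21, adjusted p = 0.0107) or plus 0.1 (-0.23, adjusted p = 0.0103). The run of 14 held both directions, with 4 genes higher and 4 lower of 11 tested in each genotype. These counts were near the shares of all genes, 35.9% higher and 37.2% lower in exa1-1 and 36.5% and 35.4% in WT.

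**Figure D2:**
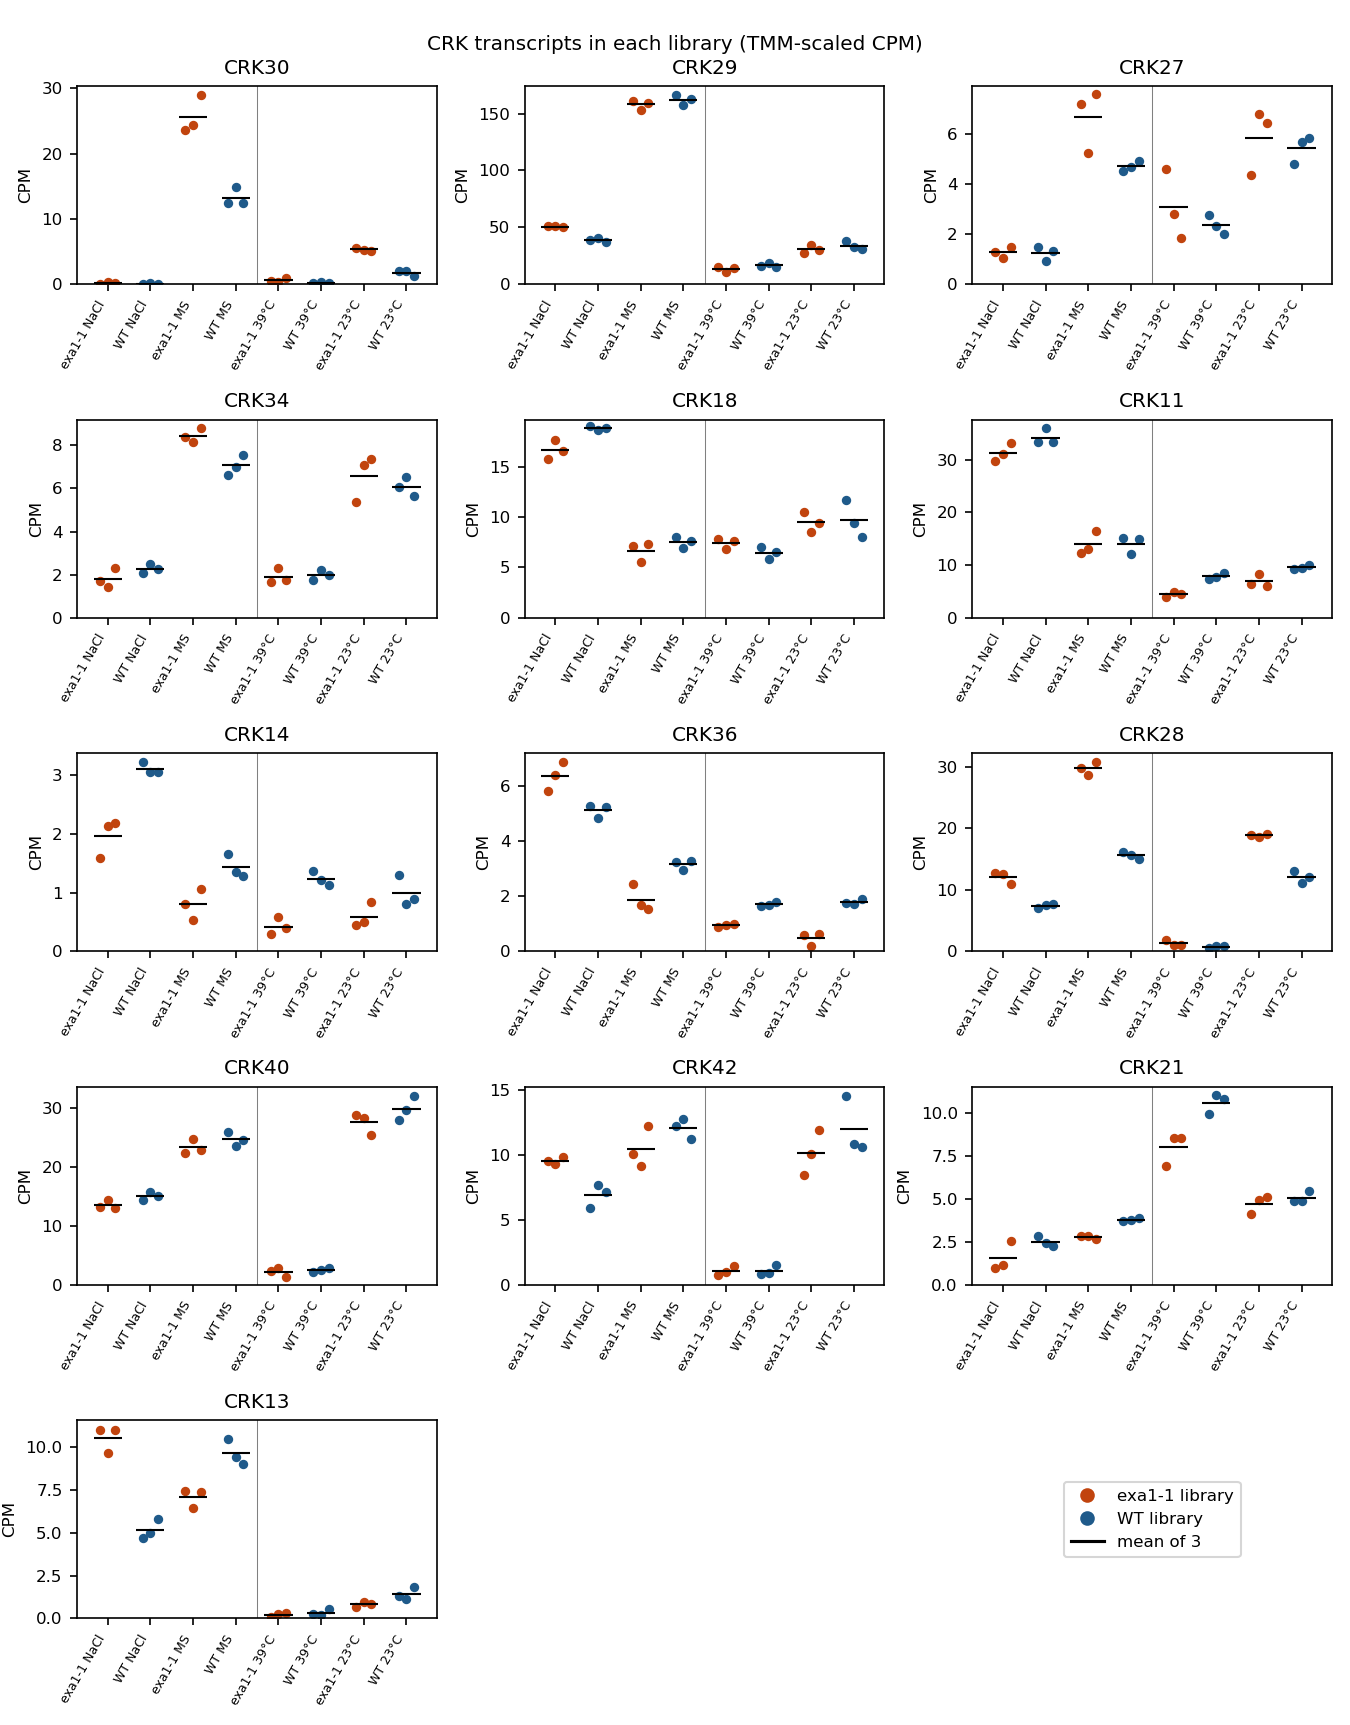
CPM of 13 CRK genes in each library (points; orange for exa1-1, blue for WT; black bars are means of 3), with the salt experiment left and the heat experiment right of the grey line and a linear axis from 0 in each panel. CRK30 is at or near 0 in both NaCl groups, and CRK13 is at 9.66 to 11.0 CPM in exa1-1 in NaCl and at 4.68 to 5.81 CPM in WT in NaCl.

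With heat more of the tested CRKs fell than rose. Of 22 genes that passed the filter in the heat experiment, 2 rose and 17 fell in exa1-1 at 39 °C, and 2 rose and 16 fell in WT at 39 °C. Of all genes tested, 38.0% were called higher and 41.4% lower in exa1-1, and 38.2% higher and 42.3% lower in WT. The median log2 fold change of the 22 genes was -1.35 in exa1-1 and -1.11 in WT, beside -0.10 in both genotypes for all genes tested. Here too a gene could pass the filter through 23 °C alone, so the counts and medians describe the genes that passed. In both genotypes 16 genes fell and CRK21 and CRK39 rose, and the share of all genes called alike in both was not counted. These directions depend on the scaling: with library totals alone the median of all genes moved to -1.05 in exa1-1 and -1.0 in WT, 2888 genes were called higher and 15679 lower in exa1-1 and 3007 higher and 15476 lower in WT. Of the CRKs 1 rose and 19 fell in exa1-1 on that scale, and 0 rose and 18 fell in WT.

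CRK28, CRK40 and CRK42 had the largest falls in WT among the genes with a mean of at least 1 CPM. CRK28 had 1.86, 1.06 and 1.07 CPM in exa1-1 at 39 °C, against 18.9, 18.6 and 19.1 CPM in exa1-1 at 23 °C, and 0.458, 0.929 and 0.850 CPM in WT at 39 °C, against 13.1, 11.1 and 12.1 CPM in WT at 23 °C. All 39 °C libraries were far below all 23 °C libraries, with log2 fold changes of -3.82 ± 0.193 in exa1-1 and -4.01 ± 0.226 in WT (adjusted p = 6.85e-25 and 8.62e-23). CRK40 had 2.35, 2.79 and 1.36 CPM in exa1-1 at 39 °C, against 28.9, 28.3 and 25.4 CPM in exa1-1 at 23 °C, and 2.20, 2.51 and 2.93 CPM in WT at 39 °C, against 28.0, 29.7 and 32.0 CPM in WT at 23 °C. The genotypes overlapped at 39 °C, and the temperatures did not, with log2 fold changes of -3.66 ± 0.156 in exa1-1 and -3.55 ± 0.149 in WT (adjusted p = 4.19e-28 and 1.72e-28).

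CRK42, the gene on chromosome 5, fell with heat in both genotypes. It had 0.782, 0.963 and 1.46 CPM in exa1-1 at 39 °C, against 8.41, 10.0 and 11.9 CPM in exa1-1 at 23 °C, and 0.825, 0.929 and 1.51 CPM in WT at 39 °C, against 14.5, 10.8 and 10.6 CPM in WT at 23 °C. Every 39 °C library was below every 23 °C library, and the log2 fold change was -3.23 ± 0.244 in exa1-1 and -3.45 ± 0.236 in WT (adjusted p = 1.62e-17 and 2.86e-19). CRK30, which fell with salt, had 0.489, 0.289 and 0.876 CPM in exa1-1 at 39 °C, against 5.59, 5.21 and 5.10 CPM in exa1-1 at 23 °C, and 0.183, 0.371 and 0.0944 CPM in WT at 39 °C, against 1.99, 2.07 and 1.24 CPM in WT at 23 °C. Its temperatures did not overlap in either genotype, with log2 fold changes of -3.25 ± 0.353 in exa1-1 and -2.98 ± 0.490 in WT (adjusted p = 5.65e-12 and 3.03e-07).

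CRK21 rose with heat after scaling by the trimmed mean of M-values. It had 6.94, 8.57 and 8.56 CPM in exa1-1 at 39 °C, against 4.16, 4.96 and 5.10 CPM in exa1-1 at 23 °C, and 9.99, 11.1 and 10.9 CPM in WT at 39 °C, against 4.88, 4.90 and 5.49 CPM in WT at 23 °C. On this scale all 39 °C libraries were higher, with log2 fold changes of 0.76 ± 0.167 in exa1-1 and 1.06 ± 0.159 in WT (adjusted p = 4.91e-05 and 3.61e-08). With library totals alone the change was -0.19 in exa1-1 and 0.16 in WT, and neither passed the test (adjusted p = 0.278 and 0.354), so CRK21 is stated to rise only relative to the scaled libraries.

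CRK39, named here after its values were seen, was near the limit of detection. It had 1.76, 0.578 and 0.779 CPM in exa1-1 at 39 °C, against 0, 0 and 0.0490 CPM in exa1-1 at 23 °C, and 1.1, 1.11 and 1.23 CPM in WT at 39 °C, against 0.597, 0.253 and 0.247 CPM in WT at 23 °C. From 32 counts in exa1-1 at 39 °C and 1 in exa1-1 at 23 °C the ratio was 65.4 (95% counting interval 10.9 to 2662), and in WT the log2 fold change was 1.63 ± 0.549 (adjusted p = 0.00641). With library totals alone the change in WT was 0.73 and did not pass the test (adjusted p = 0.207). CRK39 was the 1 gene of 22 called for the heat interaction, with 3.83 ± 1.18 (adjusted p = 0.018), and 0 were called lower, beside 8.78% higher and 8.10% lower of all genes tested (1387 higher and 2255 lower with library totals alone, against 1838 and 1695). That call was lost without WT 23 °C replicate 1, exa1-1 23 °C replicate 1, exa1-1 23 °C replicate 2 or exa1-1 39 °C replicate 1 (adjusted p = 0.0603 to 0.0833).

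Among the other genes that fell at 39 °C in both genotypes, CRK22 fell by 2.87 ± 0.182 in exa1-1 and by 2.71 ± 0.163 in WT, and CRK25 fell by 1.57 ± 0.145 in exa1-1 and by 1.44 ± 0.130 in WT. CRK16 fell by 3.47 ± 0.670 in exa1-1 and by 2.92 ± 0.619 in WT, with a mean below 2 CPM at 23 °C. CRK10, CRK13, CRK19, CRK26, CRK27, CRK29, CRK34 and CRK41 fell in both genotypes too, with log2 fold changes between -2.27 (CRK26 in exa1-1) and -0.70 (CRK19 in WT). CRK18, which rose with salt, fell by 0.35 ± 0.156 in exa1-1 (adjusted p = 0.0355) and by 0.58 ± 0.158 in WT (adjusted p = 0.000797). Its call in exa1-1 was lost without exa1-1 23 °C replicate 1, exa1-1 39 °C replicate 2 or exa1-1 39 °C replicate 3 (adjusted p = 0.0605 to 0.125) and with DESeq2 (adjusted p = 0.0733). CRK11 fell by 0.63 ± 0.175 in exa1-1 and had a change of -0.28 ± 0.153 in WT (adjusted p = 0.00114 and 0.0878), which with library totals alone was -1.19 and called. CRK12, CRK14 and CRK36 were not called in either genotype. In exa1-1 CRK12 was called lower without exa1-1 23 °C replicate 2 (-1.48, adjusted p = 0.0162), with library totals alone (-2.0, adjusted p = 0.00102) and with all libraries in the fit (-1.06, adjusted p = 0.0447). CRK14 was called lower in exa1-1 with library totals alone (-1.41, adjusted p = 0.0167). CRK36 had a change of 0.98 ± 0.479 in exa1-1 and -0.06 ± 0.367 in WT. In exa1-1 it was called higher without exa1-1 23 °C replicate 3 (1.21, adjusted p = 0.0379), with DESeq2 (1.01, adjusted p = 0.0428) and with all libraries in the fit (0.97, adjusted p = 0.0245), and in WT it was called lower with library totals alone (-0.96, adjusted p = 0.0132).

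**Figure D3:**
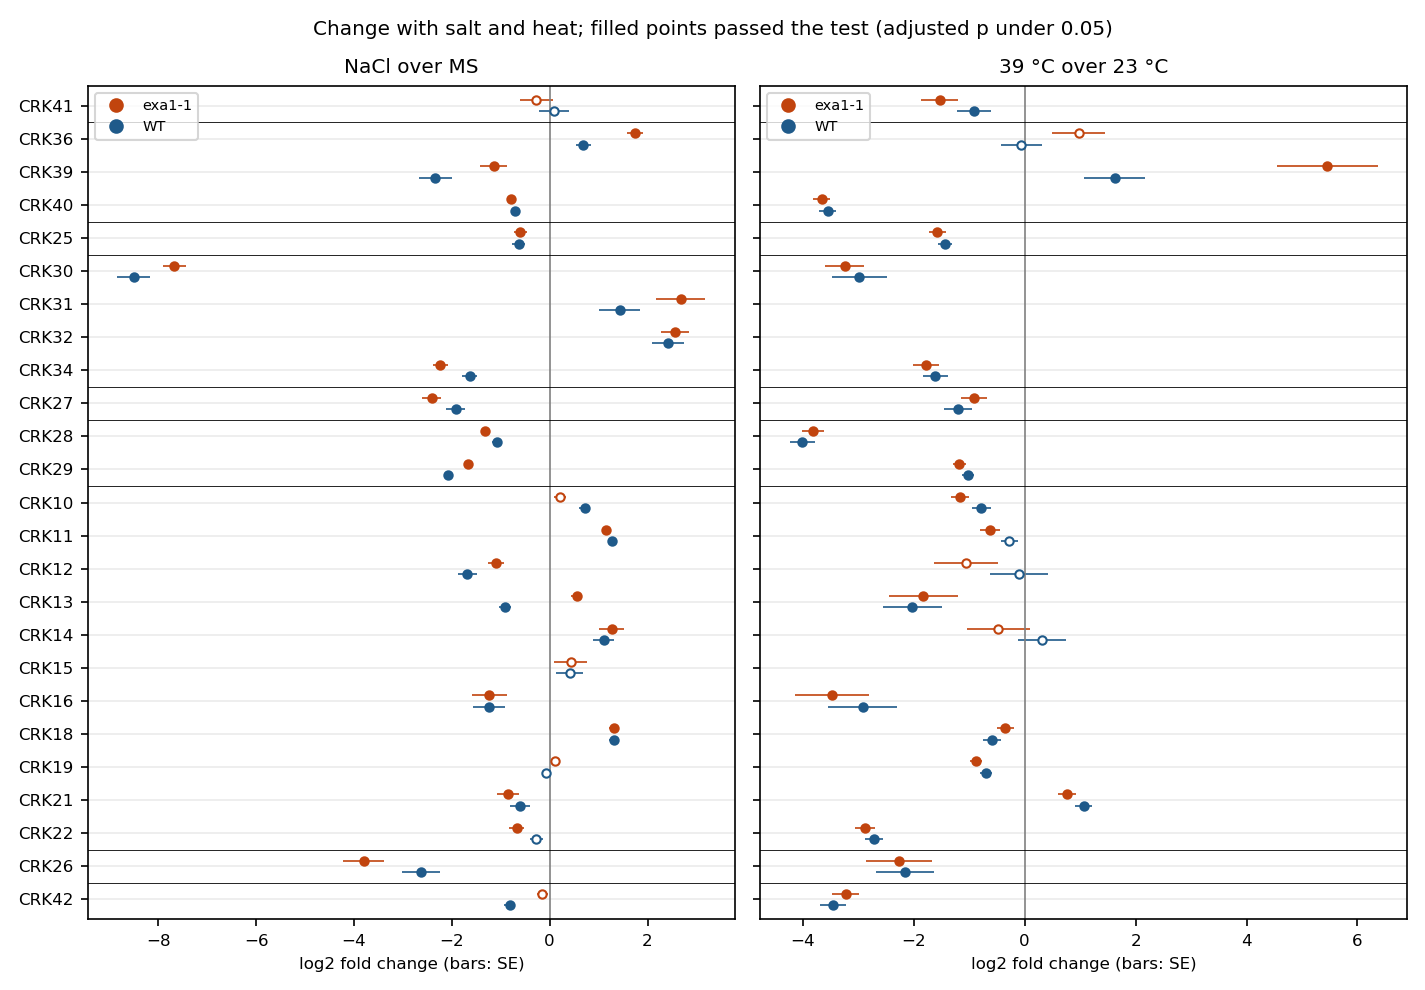
Log2 fold change (horizontal axis, bars are SE) of each expressed CRK gene (vertical axis, genome order, lines between runs) with NaCl over MS (left) and 39 °C over 23 °C (right), orange for exa1-1 and blue for WT; filled points passed the test. Salt points lie on both sides of 0, with CRK30 at -7.67 in exa1-1 and -8.50 in WT, while most heat points lie below 0. The bars of CRK30 with salt do not show its counting error.

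The genotype comparison asks which CRKs differ in exa1-1 under 1 condition. In NaCl 8 of 25 genes were higher and 5 lower in exa1-1 than in WT, where 15.3% of all genes tested were called higher and 17.1% lower. In MS 4 of 25 were higher and 5 lower, beside 16.5% and 19.5%. At 39 °C 0 of 22 were higher and 3 lower, beside 15.2% and 13.7%, and at 23 °C 2 of 22 were higher and 5 lower, beside 17.1% and 17.8%. With library totals alone the split of all genes was 4608 higher and 2878 lower in NaCl (3281 and 3669 with scaling), 5717 and 2951 in MS (3535 and 4182), and 2482 and 3565 at 39 °C (3170 and 2860). Of the CRKs it was then 9 higher and 5 lower in NaCl, 5 and 4 in MS, and 0 and 5 at 39 °C.

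CRK28 was higher in exa1-1 in 3 conditions and CRK30 in 2. For CRK28 the log2 fold change was 0.71 ± 0.0947 in NaCl, 0.94 ± 0.0731 in MS and 0.64 ± 0.119 at 23 °C (adjusted p = 1.05e-07, 1.33e-13 and 1.9e-05), with all exa1-1 libraries above all WT libraries in each. At 39 °C it was 0.83 ± 0.371 and did not pass the test (adjusted p = 0.0883). For CRK30 it was 0.96 ± 0.105 in MS and 1.58 ± 0.253 at 23 °C (adjusted p = 5.38e-09 and 1.08e-06), and the libraries given above do not overlap between genotypes in either. In NaCl CRK30 had 8 counts in exa1-1 and 2 in WT, a ratio of 3.87 whose 95% counting interval of 0.773 to 37.4 includes equality.

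CRK36 was lower in exa1-1 in both control conditions. Its log2 fold change was -0.75 ± 0.179 in MS (adjusted p = 0.000989) and -1.89 ± 0.398 at 23 °C (adjusted p = 0.000128). At 23 °C it had 0.582, 0.197 and 0.637 CPM in exa1-1, against 1.74, 1.72 and 1.88 CPM in WT, and at 39 °C 0.880, 0.963 and 0.973 CPM in exa1-1, against 1.65, 1.67 and 1.79 CPM in WT. No exa1-1 library reached a WT library at either temperature, although the difference at 39 °C, -0.85 ± 0.436, did not pass the test (adjusted p = 0.142). In NaCl the difference was 0.32 ± 0.141 and did not pass either (adjusted p = 0.0845), whereas it was 0.37 and passed with library totals alone (adjusted p = 0.0408).

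CRK14 was lower in exa1-1 in NaCl, in MS and at 39 °C, by 0.65 ± 0.213, 0.81 ± 0.270 and 1.54 ± 0.551 on the log2 scale (adjusted p = 0.016, 0.016 and 0.0287). At 39 °C it had 0.293, 0.578 and 0.389 CPM in exa1-1, against 1.38, 1.21 and 1.13 CPM in WT, and the genotypes did not overlap. These calls were fragile: that in NaCl was lost without exa1-1 NaCl replicate 1 (adjusted p = 0.0899), that in MS without WT MS replicate 1 or exa1-1 MS replicate 2 (adjusted p = 0.0861 and 0.0968), and that at 39 °C without any of WT 39 °C replicates 1, 2 and 3 or exa1-1 39 °C replicates 1 and 3 (adjusted p = 0.0506 to 0.112).

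CRK13 was higher in exa1-1 in NaCl, by 1.03 ± 0.118, and lower in MS, by 0.43 ± 0.109 on the log2 scale (adjusted p = 2.86e-09 and 0.00165). CRK12, next to it in the run of 14, was higher in exa1-1 in both, by 1.13 ± 0.208 in NaCl and 0.54 ± 0.145 in MS (adjusted p = 3.56e-05 and 0.00309). CRK11 was lower in exa1-1 in the heat experiment, by 0.82 ± 0.185 at 39 °C and 0.47 ± 0.142 at 23 °C (adjusted p = 0.000442 and 0.00741). At 39 °C its libraries had 4.01, 4.91 and 4.48 CPM in exa1-1, against 7.43, 7.80 and 8.40 CPM in WT, and at 23 °C 6.49, 8.30 and 5.98 CPM in exa1-1, against 9.25, 9.40 and 10.0 CPM in WT. The genotypes were apart at both temperatures, and the call at 23 °C was lost without exa1-1 23 °C replicate 3 (adjusted p = 0.0754).

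CRK25 was lower in exa1-1 at 39 °C by 0.60 ± 0.169 and at 23 °C by 0.46 ± 0.108 on the log2 scale (adjusted p = 0.00519 and 0.000493). CRK22 was lower in NaCl by 0.73 ± 0.153 (adjusted p = 0.000207). It was also called lower in MS and at 23 °C, by 0.34 ± 0.133 and 0.36 ± 0.115, and both of these calls were lost on leaving out single libraries. For 23 °C these were WT 23 °C replicate 1 and exa1-1 23 °C replicate 3 (adjusted p = 0.0795 and 0.164). For MS they were WT MS replicates 1 and 3, WT NaCl replicate 3 and exa1-1 MS replicates 1 and 2 (adjusted p = 0.0508 to 0.225). The MS call was also lost with library totals alone (adjusted p = 0.127) and with DESeq2 (adjusted p = 0.0775). It was lost too by limma on log2 FPKM plus 1 or plus 0.1 (adjusted p = 0.196 and 0.240). Limma on log2 FPKM plus 0.1 also ended the call at 23 °C (adjusted p = 0.144). CRK10 was lower in NaCl by 0.57 ± 0.112, and CRK29, CRK42 and CRK19 were higher in NaCl by 0.39 ± 0.0503, 0.47 ± 0.117 and 0.28 ± 0.0705. At 23 °C CRK10 had a change of 0.33 that did not pass the test (adjusted p = 0.0563). There it was called higher with RLE sizes and with all libraries in the fit (adjusted p = 0.0417 and 0.0338). The same held without WT 23 °C replicate 3 or exa1-1 23 °C replicate 3 (adjusted p = 0.0297 and 0.00854). CRK27 was higher in MS by 0.52 ± 0.147 (adjusted p = 0.00543), and CRK39 was lower at 23 °C, where its ratio of WT over exa1-1 was 23.1 on 22 counts against 1 (95% counting interval 3.73 to 953).

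The remaining genotype calls were on CRK15, CRK32 and CRK39, genes of low level, and on CRK21, with a mean of 4.89 CPM over the 24 libraries. CRK15 was lower in exa1-1 in NaCl by 0.93 ± 0.297 and in MS by 0.95 ± 0.314 (adjusted p = 0.0134 and 0.0162), and averaged 0.853 ± 0.0474 CPM in exa1-1 in NaCl and 1.63 ± 0.291 CPM in WT in NaCl, with 0.627 ± 0.173 CPM in exa1-1 in MS and 1.22 ± 0.355 CPM in WT in MS (SD, n = 3). The call in NaCl was lost without WT NaCl replicate 2, and that in MS without WT MS replicate 1, WT MS replicate 2 or exa1-1 MS replicate 1 (adjusted p = 0.0688 to 0.0887). In NaCl CRK32 and CRK39 were higher in exa1-1 by 0.73 ± 0.232 and 1.15 ± 0.396, and CRK21 was lower by 0.67 ± 0.238 (adjusted p = 0.0137, 0.0227 and 0.0267). These were lost without WT NaCl replicate 1 or exa1-1 NaCl replicate 2 for CRK32, without WT NaCl replicates 2 or 3 or exa1-1 NaCl replicate 1 for CRK39, and without WT NaCl replicates 1 or 2 or exa1-1 NaCl replicates 1 or 2 for CRK21 (adjusted p = 0.0505 to 0.193). CRK40, CRK34, CRK18, CRK16, CRK26, CRK31 and CRK41 were called for genotype in none of the conditions tested, though CRK31 was called lower in MS without exa1-1 MS replicate 1 (adjusted p = 0.0192) and CRK41 lower in NaCl without exa1-1 NaCl replicate 2 (adjusted p = 0.0247). CRK34 was called higher in MS with library totals alone (0.35, adjusted p = 0.0199) and by limma on log2 FPKM plus 1 (0.28, adjusted p = 0.0438).

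**Figure D4:**
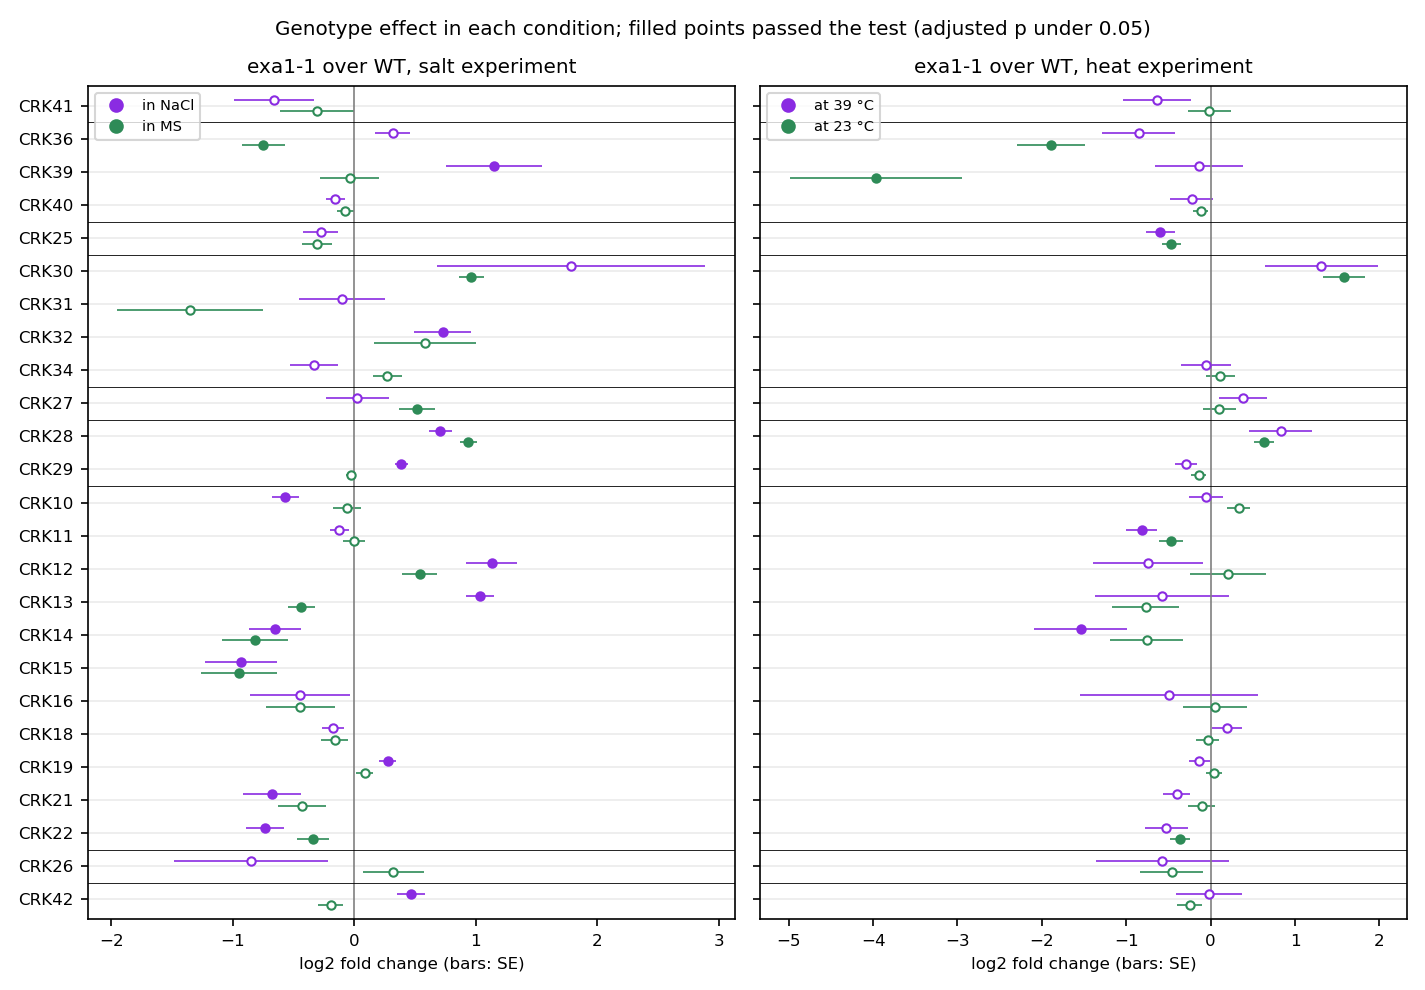
Log2 fold change of exa1-1 over WT (horizontal axis, bars are SE) for each expressed CRK gene (vertical axis, genome order), in the salt experiment (left; violet NaCl, green MS) and the heat experiment (right; violet 39 °C, green 23 °C); filled points passed the test. CRK28 lies right of 0 in all 4 conditions and CRK13 lies at 1.03 in NaCl and -0.43 in MS.

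The controls of the experiments, 23 °C and MS, were compared in 1 fit of all libraries. In exa1-1 7 of 25 genes were higher and 11 lower at 23 °C than in MS, beside 33.1% and 33.6% of all genes tested, and in WT 6 were higher and 10 lower, beside 33.3% and 32.8%. The counts called, 18 of 25 and 16 of 25, were near the share over all genes. Scaled by library totals alone, 5 CRKs were higher and 14 lower in exa1-1, and 3 higher and 12 lower in WT, and of all genes 4451 were higher and 11362 lower in exa1-1 and 5213 higher and 10013 lower in WT. CRK29 was lower at 23 °C by 2.37 ± 0.0658 on the log2 scale in exa1-1 and by 2.26 ± 0.0654 in WT (adjusted p = 5.85e-35 and 3.15e-34). CRK13 was lower by 3.10 ± 0.202 in exa1-1 and by 2.77 ± 0.178 in WT, while CRK22 was higher by 1.49 ± 0.129 in exa1-1 and by 1.51 ± 0.123 in WT. The series text names 1 normal condition and the labels name both controls, without saying how they differed, so that experiment and treatment cannot be told apart here.

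Upstream sequence was examined for all 31 genes. The W box, which WRKY transcription factors bind, was searched as TTGACC or TTGACT on both strands in the 250 bases before each annotated gene start (TAIR10.1). It was present before 20 of 31 CRK genes (64.5%) and 15 of the 25 expressed (60.0%), whereas 28.4% of 27443 protein-coding genes held it. Among genes that rose with salt in WT 6 of 7 held it, among those that fell 7 of 14, and among those not called 2 of 4. The shorter core TTGAC, which both W box forms contain, was present before 23 of 31 CRK genes (74.2%) and 44.9% of all. The windows before CRK11, CRK18 and CRK36, 3 of the 6 that rose with salt in both genotypes, and CRK30, which had the largest fall, are shown 5′ to 3′ on the strand of the gene, with W boxes on either strand in capitals. They lie on TAIR10.1 at chr4:12143859-12144108 (minus strand), chr4:12170081-12170330 (minus), chr4:2234690-2234939 (minus) and chr4:6963271-6963520 (plus), and overlap no annotated gene.
CRK11: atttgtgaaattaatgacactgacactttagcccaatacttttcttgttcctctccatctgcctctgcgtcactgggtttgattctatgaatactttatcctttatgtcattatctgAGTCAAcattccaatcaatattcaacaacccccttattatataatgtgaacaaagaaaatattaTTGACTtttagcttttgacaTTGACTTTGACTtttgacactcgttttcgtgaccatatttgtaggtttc
CRK18: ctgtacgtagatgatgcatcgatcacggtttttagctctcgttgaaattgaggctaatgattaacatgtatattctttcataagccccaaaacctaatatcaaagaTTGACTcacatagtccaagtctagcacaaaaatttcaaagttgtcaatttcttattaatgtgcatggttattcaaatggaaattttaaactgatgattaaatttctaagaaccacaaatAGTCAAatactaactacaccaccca
CRK36: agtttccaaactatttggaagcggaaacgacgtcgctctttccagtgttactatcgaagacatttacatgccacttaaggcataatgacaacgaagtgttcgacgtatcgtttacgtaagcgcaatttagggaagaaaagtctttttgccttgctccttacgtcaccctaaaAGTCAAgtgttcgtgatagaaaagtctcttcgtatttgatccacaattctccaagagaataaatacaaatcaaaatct
CRK30: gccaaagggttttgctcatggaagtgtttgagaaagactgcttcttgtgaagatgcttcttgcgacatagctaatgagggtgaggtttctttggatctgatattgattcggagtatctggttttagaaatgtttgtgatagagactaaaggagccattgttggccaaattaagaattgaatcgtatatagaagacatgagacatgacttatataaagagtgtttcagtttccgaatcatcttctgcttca
CRK11 has 4 W boxes, CRK18 has 2, CRK36 has 1 and CRK30 has none in these windows. CRK30 does not stand for all genes that fell, since CRK27, CRK29 and CRK34 have 1 each, as CRK36 does. A match describes the letters and no binding was measured.

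**Figure D5:**
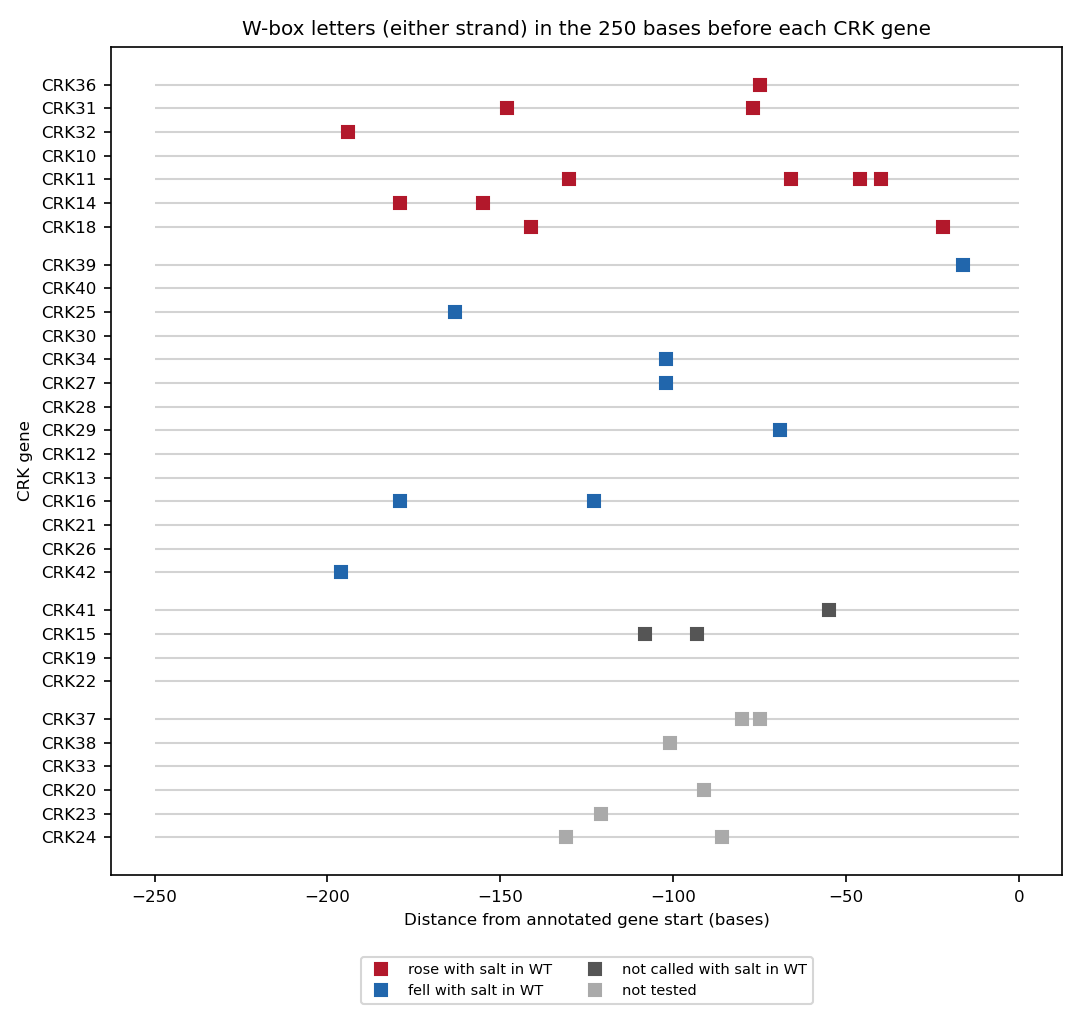
Position of each W box (squares) in the 250 bases before the start of the 31 CRK genes (horizontal axis, bases from the annotated start; grey lines are the windows), grouped by the call with salt in WT. Of the 7 genes that rose, CRK10 alone has no square, and 7 of the 14 that fell have none.

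Related genes were counted from lists. A list of 8 DUF26 kinases outside the name rule held CRK2 to CRK8 and AT1G19090, and need not hold all such kinases. Of these, 7 of 8 were tested, and with salt 3 rose and 2 fell in exa1-1, and 3 rose and 2 fell in WT. With heat 0 of them rose and 5 fell in exa1-1, and 0 rose and 6 fell in WT. The plasmodesmata-located DUF26 proteins, 8 genes that share the extracellular domain without the kinase, had 1 gene higher and 6 lower with salt, and 2 higher and 6 lower with heat, in each genotype. In both lists more genes were lower than higher at 39 °C. Of all genes tested, 41.4% were lower and 38.0% higher with heat in exa1-1, and 42.3% lower and 38.2% higher in WT.

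The 6 partner genes, the coreceptors BAK1 and BKK1, the receptor FLS2, the kinase BIK1 and the NADPH oxidases RBOHD and RBOHF, had 5 higher and 0 lower with salt in exa1-1 and 3 higher and 1 lower in WT. With heat 1 rose and 5 fell in each genotype. Of 6 WRKY factors, which include WRKY33, WRKY40 and WRKY70, 4 rose and 2 fell with salt and 1 rose and 5 fell with heat in each genotype. Of 11 salicylate pathway genes tested, 5 rose and 2 fell with salt in exa1-1 and 3 rose and 3 fell in WT, and 2 rose and 8 fell with heat in each genotype. Between exa1-1 and WT 2 were higher and 3 lower in NaCl, 1 higher and 4 lower in MS, 0 higher and 6 lower at 39 °C and 0 higher and 7 lower at 23 °C, to be read beside the shares of all genes given above for each condition. The counts of all these lists with salt and heat are also to be read beside the shares of all genes, which with heat depend on the scaling. No test of these lists was made.

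Markers of organs moved with the treatments, not all in the same direction. Summed over 8 root markers, such as EXPA7 and CASP1, the level was 60.8 to 62.5 CPM in exa1-1 in NaCl, 62.8 to 65.0 CPM in WT in NaCl, 163 to 170 CPM in exa1-1 in MS and 137 to 146 CPM in WT in MS. It was 64.0 to 68.6 CPM in exa1-1 at 39 °C, 56.7 to 58.0 CPM in WT at 39 °C, 210 to 215 CPM in exa1-1 at 23 °C and 196 to 221 CPM in WT at 23 °C. PHO1 alone averaged 107 CPM in exa1-1 and 114 CPM in WT at 23 °C. With salt and with heat 1 of the 8 rose and 7 fell in each genotype. The 1 that rose with heat was CASP1, at 24.7 against 10.2 CPM in exa1-1 and 27.2 against 17.6 CPM in WT. Between exa1-1 and WT 0 of the 8 were higher and 1 lower in NaCl, and 5 and 0 in MS. Those counts were 4 and 0 at 39 °C, and 3 and 1 at 23 °C. The 8 shoot markers, such as RBCS1A, summed to 4726 to 4847 CPM in exa1-1 in NaCl, 8475 to 8848 CPM in WT in NaCl, 4049 to 4309 CPM in exa1-1 in MS and 5112 to 5463 CPM in WT in MS. They summed to 22200.5 to 23066 CPM in exa1-1 at 39 °C, 26397 to 27210.1 CPM in WT at 39 °C, 12785 to 13277 CPM in exa1-1 at 23 °C and 13953 to 14480.0 CPM in WT at 23 °C. RBCS1A alone averaged from 3601 CPM in exa1-1 in MS to 18824 CPM in WT at 39 °C and made up most of each sum. AS1 was lower at 39 °C than at 23 °C, at 30.5 against 140 CPM in exa1-1 and 21.6 against 99.7 CPM in WT. Of the 8 shoot markers, 5 were higher and 1 lower with salt in exa1-1, and 7 higher and 1 lower in WT. With heat 4 were higher and 2 lower in exa1-1, and 4 higher and 3 lower in WT. Between exa1-1 and WT 2 were higher and 5 lower in NaCl, 1 and 5 in MS, 3 and 4 at 39 °C, and 2 and 5 at 23 °C, and none of the 16 markers was at 0 in any group. The part of these shifts in the CRK results was not tested.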

How the data were processed

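Polysome-bound mRNA of whole seedlings was sequenced in 24 strand-specific libraries. The submitters' processing notes name the aligner HISAT2 2.0.4, the counter HTSeq 0.6.1p1 and the build TAIR10, and strand or overlap settings of the counting are not given in the sources used here. The authors deposited counts per gene and FPKM. Groups came from sample titles. Counts were tested with edgeR 4.0.16 (R 4.3.3) after filterByExpr (minimum count 10, total 15) and TMM scaling, with Benjamini-Hochberg adjustment over every gene that passed (21453 for salt, 20923 for heat, 21917 for the controls). Adjusted p-values are edgeR's unless limma or DESeq2 is named, and calls were made under 0.05. Salt and heat were each fitted on 12 libraries and the controls on 24. CPM use the TMM sizes of all 24. Intervals cover counting error only. Each SE was derived from the edgeR test, as the absolute log2 fold change over the square root of its F statistic. It is unreliable where a group is at or near 0 counts. The CRK genes and the gene lists were chosen with earlier results of these data known. Values by library are given, among genes with a mean of at least 1 CPM, for the 3 called with the largest change each way in each stress comparison and the 4 with the largest genotype effect or interaction, and further genes were chosen after their values were seen. Alternatives were RLE sizes, library totals alone, DESeq2 1.42.0, limma 3.58.1 on log2 of FPKM plus 1 or plus 0.1 (mean FPKM at least 0.5), no filter, a filter at 1 CPM in at least 6 libraries, a block for replicate number, all libraries in each fit, a 1.5-fold minimum, and each library left out. Sequences came from the RefSeq TAIR10.1 assembly by locus (Python 3.11.15, Biopython 1.88).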

Additional observations from a re-analysis of the deposited data

Results flagged for a closer look

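The salt change of 5 CRKs differed between the genotypes by the test of the interaction (exa1-1 minus WT, log2 scale): CRK13 by 1.47, CRK36 by 1.06, CRK42 by 0.66, CRK29 by 0.42 and CRK10 by -0.51. With a 1.5-fold minimum only CRK13 stayed called, and CRK36 (adjusted p = 0.284), CRK42, CRK29 and CRK10 did not. The call on CRK10 was also lost in the further settings given above. The heat change differed for CRK39, by 3.83, on 1 count in exa1-1 at 23 °C. Their values by library stand above for CRK13, CRK29, CRK36, CRK39 and CRK42. For CRK10 they were 7.52, 8.62 and 9.83 CPM in exa1-1 in NaCl, against 7.03, 7.80 and 7.42 CPM in exa1-1 in MS, and 13.5, 13.8 and 11.2 CPM in WT in NaCl, against 6.72, 7.93 and 8.79 CPM in WT in MS. NaCl and MS libraries of CRK10 overlap in exa1-1 and do not overlap in WT.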

How the results depend on the processing

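Of 285 fold changes tested, 150 were called. Leaving out single libraries ended 19 of these calls and made 17 others. With the replicate block 285 of 285 kept their side of the threshold, the count in MS between genotypes being 9 as without it. Same-numbered libraries had no correlation of deviations over 0.1 (0 of 18 pairs in salt, 0 of 18 in heat, 0 of 84 over all), so numbers were not used to pair.

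With a 1.5-fold minimum the CRKs called between exa1-1 and WT were 1 in NaCl, 2 in MS, 0 at 39 °C and 3 at 23 °C, those for the salt and heat interactions 1 and 0, and those between 23 °C and MS 11 in exa1-1 and 7 in WT. Over all genes it called 6601 for salt in exa1-1 and 6216 in WT, 10831 for heat in exa1-1 and 10928 in WT, 381 between genotypes in NaCl, 368 in MS, 209 at 39 °C and 366 at 23 °C, 207 and 71 for the salt and heat interactions, and 5745 in exa1-1 and 6011 in WT between 23 °C and MS. At 39 °C library totals alone gave 5 CRKs between genotypes, and leaving out each library 2 to 5. The highest came without WT 23 °C replicate 1, and the lowest, 2, without any WT 39 °C replicate in turn or exa1-1 39 °C replicate 3. At 23 °C log2 FPKM plus 0.1 gave 4. For the heat interaction DESeq2, log2 FPKM plus 0.1 and the stricter filter gave 0, and leaving out each library 0 to 1. CRK39 had no adjusted p in those 3 settings or with log2 FPKM plus 1, where the single call was CRK30, lower in exa1-1 (-0.82, adjusted p = 0.00321 by limma).

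CRK21 with heat in exa1-1 reversed to -0.19 with library totals alone, -0.13 with log2 FPKM plus 1 and -0.19 with log2 FPKM plus 0.1. Between 23 °C and MS in exa1-1, CRK40 reversed to -0.069, -0.065 and -0.071 in the same order, and CRK19 to -0.20 with library totals. The salt interaction of CRK30 reversed to -0.88 with log2 FPKM plus 1. The cause was not tested. With library totals alone the median of all genes moved to -0.33 in exa1-1 and -0.23 in WT between 23 °C and MS. Low counts limit CRK30 in NaCl and CRK39 at 23 °C.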
